A study of Mus musculus with 48 samples.

Results

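The NADPH oxidase of phagocytes was followed through 5 genes, Cybb, Cyba, Ncf1, Ncf4 and Rac2, which were taken from the deposited expression table by gene symbol. They are 5 of 48526 genes in the table and 5 of the 10132 genes that were tested. The table holds 48 RNA-seq libraries of hippocampal microglia, the resident macrophages of the brain, from C57BL/6 mice. On postnatal day 21 the mice had either been given 8 Gy to the whole brain in 1 dose (irradiated) or gone through a sham procedure (sham), and they were killed 2 h, 6 h, 1 day or 1 week later. There were 6 irradiated and 6 sham animals at each time, so each time had sham animals of its own, and each animal gave 1 library. Cells freed by a mild enzymatic digestion were isolated by FACS on Cx3cr1, a receptor that microglia share with some blood monocytes and border macrophages, and the kit for the libraries was QIAseq FX single cell RNA (Qiagen).

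The phagocyte oxidase moves electrons from cytosolic NADPH across a membrane to oxygen and so makes superoxide. Its catalytic core is a membrane heterodimer of gp91phox (NOX2, encoded by Cybb) and p22phox (Cyba), which stabilise each other. The enzyme is silent until cytosolic subunits, among them p47phox (Ncf1) and p40phox (Ncf4), and a Rac GTPase (Rac1 or Rac2) join the core. In the brain it is found mostly in microglia, where it is a source of reactive oxygen after injury. Rac1 is given beside the 5 genes.

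In brief, the transcripts of the membrane core were higher in irradiated microglia at 2 h and 6 h, by 4.68-fold and 6.32-fold in mean RPM (reads per 1000000 reads on genes) for Cybb and by 1.83-fold and 2.75-fold for Cyba. Of the cytosolic subunits followed here, Ncf1 rose at 2 h and Ncf4 at 2 h and 6 h. At 2 h Ncf1 and Ncf4 each fell short of the threshold when any of several single libraries was left out, as set out below. The GTPase genes Rac2 and Rac1 passed the test at no time, and at 1 day and 1 week none of the 5 genes did. The rise of Ncf4 at 6 h did not pass the test against 2 of the 6 sham libraries, as set out below, while those of Cybb and Cyba did.

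The promoters of the core genes are shown because the results turn on these 2 genes. They come from RefSeq (GRCm38.p6) and run from 250 bases before to 50 bases after the annotated start of transcription, 5′ to 3′ on the minus strand, on which both genes lie. In capitals are matches, on either strand, to GAGGAA (the core of sites of PU.1, the main transcription factor of myeloid cells) and to the core of interferon response elements (GAAA, any 2 bases, GAAA). The Cybb window is chrX:9469275-9469574, and the Cyba window is chr8:122432891-122433190.
Cybb: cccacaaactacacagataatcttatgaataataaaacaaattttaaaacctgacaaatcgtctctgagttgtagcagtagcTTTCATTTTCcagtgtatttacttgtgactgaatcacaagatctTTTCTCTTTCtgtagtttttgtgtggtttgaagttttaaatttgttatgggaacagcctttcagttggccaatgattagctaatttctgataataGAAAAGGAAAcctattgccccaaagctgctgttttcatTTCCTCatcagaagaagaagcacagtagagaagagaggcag
Cyba: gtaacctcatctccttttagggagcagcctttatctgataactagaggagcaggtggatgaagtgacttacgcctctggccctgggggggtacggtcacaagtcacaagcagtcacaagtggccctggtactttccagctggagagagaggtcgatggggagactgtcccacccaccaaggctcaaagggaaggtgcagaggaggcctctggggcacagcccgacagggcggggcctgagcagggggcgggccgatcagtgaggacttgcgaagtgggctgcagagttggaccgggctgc
The Cybb window held 3 matches to the interferon response core, which begin at positions -168, -124 and -29 relative to the start, the first 2 on the opposite strand, and 1 match to GAGGAA at position 10 on the opposite strand. The Cyba window held neither motif. The Ncf1 window (chr5:134229576-134229875, minus strand) held 1 match to the interferon response core, at position -82. None of the 3 windows held a form of the NF-kB site (GGGA, any base, TTTCC) on either strand. Of all 32851 RefSeq windows of this length, 28.3% held GAGGAA, 3.44% the interferon response core and 0.411% the NF-kB form, so the matches describe letters in the window and not binding. Ncf4 and Rac2 had no window in the table used.

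In the files' own coordinates (GRCm38), Cybb (ENSMUSG00000015340) spans chrX:9435252-9487771 and Cyba (ENSMUSG00000006519) chr8:122424776-122432930, both on the minus strand. Ncf1 (ENSMUSG00000015950) spans chr5:134220053-134229625 on the minus strand and Ncf4 (ENSMUSG00000071715) chr15:78244801-78262580 on the plus strand. Rac2 (ENSMUSG00000033220) spans chr15:78559169-78572783 on the minus strand. All are annotated as protein coding. The RefSeq start of Cybb lies inside the span that the files give for it. Ncf1 shares 408 exon bases with Gtf2ird2 on the opposite strand, which had 4439 reads over the 48 libraries, against 77736 for Ncf1. Whether reads were assigned by strand is not given in the sources used here, so reads in that stretch cannot be told apart.

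Values are given in RPM, computed from whole reads recovered from the deposited values. The test was limma on log2(RPKM + 1), where RPKM divides RPM by the length of the gene in kilobases with its introns included, over all 10132 genes with an RPKM of at least 1 in at least 6 libraries. The p-values were adjusted over these genes by the Benjamini-Hochberg method, with a threshold of 0.05, and changes are irradiated minus sham. The pseudocount of 1 makes this scale understate the change of low genes with long introns, Cybb above all, whose span is 52520 bases against 5808 exon bases. Changes from limma voom on the recovered reads, on the log2 RPM scale, are therefore given beside it for Cybb. Over all genes tested the median change was -0.01, 0.08, 0 and 0.05 on the log2(RPKM + 1) scale and 0.03, 0.17, -0.13 and 0.07 by voom at 2 h, 6 h, 1 day and 1 week.

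Reads on genes ran from 395761 to 3507424 in irradiated libraries and from 175382 to 3856777 in sham libraries, and the lowest were sham 1 day library 6, irradiated 2 h library 2 (395761 reads) and sham 6 h library 4 (731819 reads). The sham 6 h libraries fell into 2 sets. On the first principal component of all tested genes, which held 15.4% of the variance, libraries 1 to 4 lay between -43.1 and -36.0, among the 12 libraries of 2 h (-43.7 to -10.1). Sham 6 h libraries 5 and 6 lay at 11.3 and 16.0, beside the irradiated 6 h libraries (12.3 to 21.1). Results at 6 h are therefore given against all 6 sham libraries and against each set. Microglia markers were abundant in all 48 libraries, with group medians of their summed level from 30200 to 43922 RPM over 10 genes. The neutrophil genes S100a8, S100a9, Mpo, Elane, Ly6g and Ngp had 3, 2, 0, 1, 0 and 2 reads over all 48 libraries. Of the other listed monocyte and neutrophil markers, Csf3r had 49720 reads, Plac8 1275, Ccr2 816, Cxcr2 144, Ly6c2 31 and Camp 11. Chil3, Mmp8, Ltf and Retnlg had 5, 2, 1 and 0 reads. In bulk libraries, fewer cells of a type and less RNA per cell cannot be told apart.

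**Figure D1:**
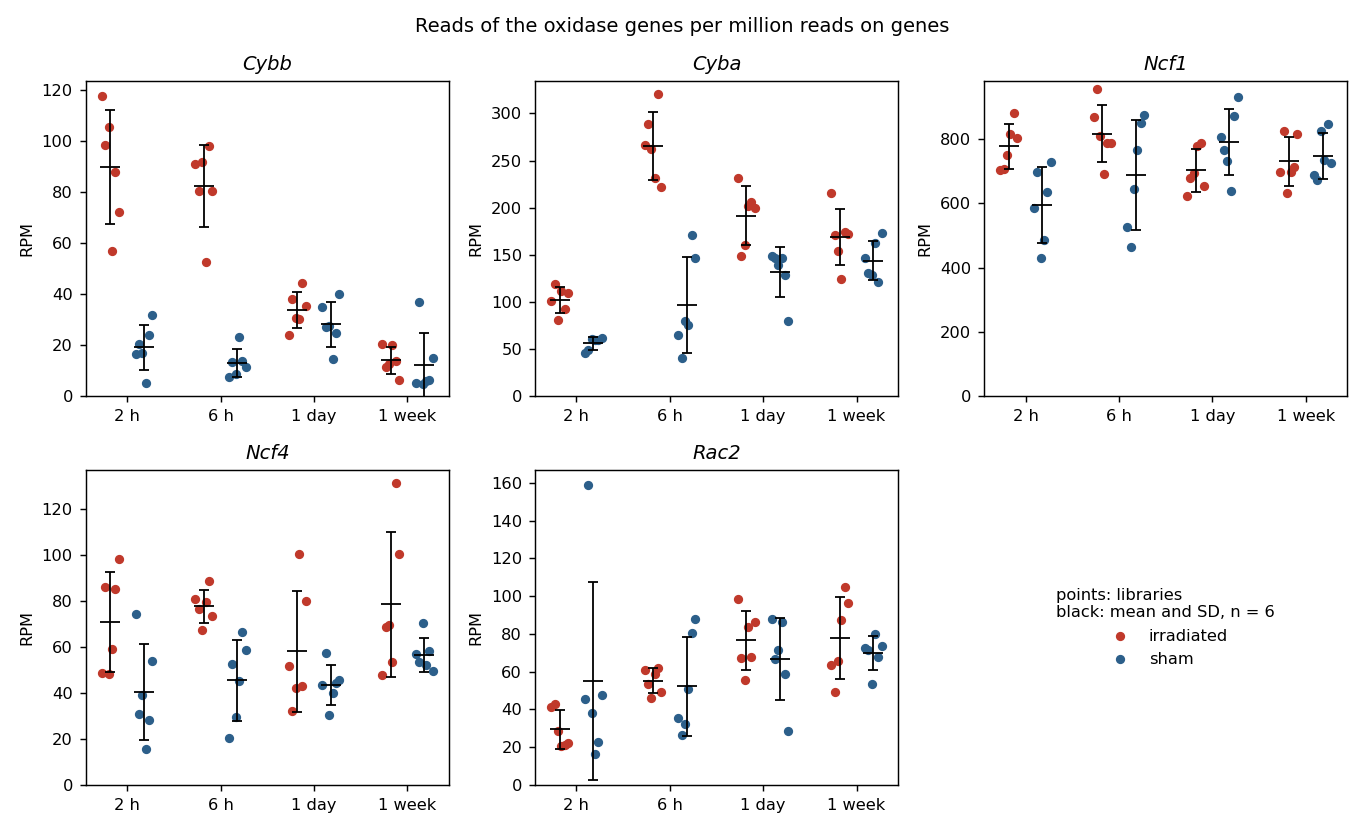
RPM (reads per 1000000 reads on genes, linear axes from 0) of the 5 oxidase genes in each library, by time, with irradiated libraries (red) left of sham libraries (blue) and the mean ± SD of 6 libraries in black. For Cybb and Cyba, all 6 irradiated libraries lie above all 6 sham libraries at 2 h and at 6 h.

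Cybb encodes the catalytic subunit that carries the electrons. At 2 h it had 57.0 to 118 RPM in irradiated libraries (median 93.2), against 5.21 to 31.7 RPM in sham libraries (median 18.7). At 6 h it had 52.5 to 98.0 RPM in irradiated libraries (median 85.7), against 7.63 to 23.2 RPM in sham libraries (median 12.3). At both times every irradiated library lay above every sham library, and the lowest irradiated library was well above the highest sham one. Of all genes tested, 2.47% were separated in this way at 2 h and 4.96% at 6 h, and 2 of the 5 oxidase genes were at 2 h (Cybb and Cyba) and 3 of 5 at 6 h (Cybb, Cyba and Ncf4). At 1 day and 1 week it was 0 of 5, against 2.29% and 2.06% of all genes.

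Mean Cybb was 89.7 ± 22.3 RPM in irradiated and 19.2 ± 8.83 RPM in sham libraries at 2 h, and 82.3 ± 16.1 RPM in irradiated and 13.0 ± 5.56 RPM in sham libraries at 6 h (SD, n = 6 each). The log2(RPKM + 1) change was 0.98 ± 0.11 at 2 h (SE, limma adjusted p = 1.1e-08) and 1.04 ± 0.11 at 6 h (limma adjusted p = 2.9e-09). By voom the same changes were 2.31 ± 0.33 and 2.78 ± 0.33 log2 units. These values rest on few reads: 39 to 259 per irradiated library and 8 to 55 per sham library at 2 h. Cybb reached the level required for testing in 11 libraries, all irradiated, and in 0 sham libraries, so its entry into the test rested on the irradiated groups.

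At 1 day Cybb had 24.02 to 44.2 RPM in irradiated libraries (median 33.2), against 14.6 to 39.9 RPM in sham libraries (median 27.3). At 1 week it had 6.27 to 20.3 RPM in irradiated libraries (median 13.0), against 4.76 to 37.0 RPM in sham libraries (median 6.00). The groups overlapped at both times, and the highest value at 1 week belonged to a sham library. At 1 week 4 of the 6 sham libraries lay below every irradiated library. The log2(RPKM + 1) changes were 0.10 ± 0.11 (limma adjusted p = 0.75) and 0.05 ± 0.11 (limma adjusted p = 0.86). By voom they were 0.39 ± 0.31 and 0.48 ± 0.39 log2 units and did not pass either (voom adjusted p = 0.55 and 0.51). The effect itself differed between 6 h and 1 day, with a change at 1 day that was lower by 0.93 ± 0.16 (SE, limma adjusted p = 0.00048). The voom value of this difference was -2.39 ± 0.45 log2 units (voom adjusted p = 0.0010).

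Cyba encodes the partner that anchors the core and docks p47phox. At 2 h it had 81.0 to 119 RPM in irradiated libraries (median 105), against 45.5 to 61.6 RPM in sham libraries (median 59.5). At 6 h it had 222 to 320 RPM in irradiated libraries (median 265), against 40.5 to 171 RPM in sham libraries (median 77.4). No irradiated library overlapped the sham range at either time. The log2(RPKM + 1) change was 0.78 ± 0.19 at 2 h (SE, limma adjusted p = 0.0039) and 1.52 ± 0.19 at 6 h (limma adjusted p = 5.0e-08).

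At 1 day Cyba had 149 to 232 RPM in irradiated libraries (median 201), against 79.8 to 149 RPM in sham libraries (median 143). Of the 6 irradiated libraries 5 lay above every sham library, and the remaining one lay just under the highest sham library. The log2(RPKM + 1) change was 0.53 ± 0.19 and did not pass (SE, limma adjusted p = 0.11), but it did when the sham 6 h group, which shares the estimate of spread, was reduced to libraries 5 and 6 (limma adjusted p = 0.011) or to libraries 1 to 4 (limma adjusted p = 0.019). At 1 week Cyba had 125 to 215 RPM in irradiated libraries (median 172), against 121 to 173 RPM in sham libraries (median 139), with a change of 0.21 ± 0.19 (SE, limma adjusted p = 0.60).

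Among the cytosolic subunits, Ncf1 encodes the organiser p47phox, whose phosphorylation starts assembly. At 2 h it had 703 to 879 RPM in irradiated libraries (median 777), against 431 to 729 RPM in sham libraries (median 611). The groups overlapped, and 4 irradiated libraries lay above every sham library. Its log2(RPKM + 1) change at 2 h was 0.40 ± 0.13 (SE, limma adjusted p = 0.035), and it fell short of the threshold when any of 7 single libraries was left out (sham 2 h library 1, 3 or 4, or irradiated 2 h library 3, 4, 5 or 6; limma adjusted p = 0.051 to 0.13).

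At 6 h Ncf1 had 689 to 954 RPM in irradiated libraries (median 798), against 463 to 873 RPM in sham libraries (median 704), with a change of 0.28 ± 0.13 that did not pass (SE, limma adjusted p = 0.12). At 1 day it had 622 to 786 RPM in irradiated libraries (median 686), against 639 to 929 RPM in sham libraries (median 785). At 1 week it had 633 to 824 RPM in irradiated libraries (median 705), against 671 to 846 RPM in sham libraries (median 729). The groups overlapped at all 3 times, and at 1 day and 1 week the irradiated median was the lower one, with changes of -0.16 ± 0.13 and -0.04 ± 0.13 (SE, limma adjusted p = 0.60 and 0.93).

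Ncf4 encodes p40phox, which binds a phosphoinositide of phagosome membranes. At 2 h it had 48.2 to 98.4 RPM in irradiated libraries (median 72.1), against 15.6 to 74.4 RPM in sham libraries (median 34.9). At 6 h it had 67.5 to 88.5 RPM in irradiated libraries (median 78.1), against 20.5 to 66.6 RPM in sham libraries (median 48.8). The groups overlapped at 2 h, and at 6 h they were separated by a narrow gap. The log2(RPKM + 1) change was 0.65 ± 0.21 at 2 h (SE, limma adjusted p = 0.044) and 0.64 ± 0.21 at 6 h (limma adjusted p = 0.024). The 2 h call was lost when any of 7 single libraries was left out (sham 2 h library 2, 3, 4 or 5, or irradiated 2 h library 2, 5 or 6; limma adjusted p = 0.061 to 0.15), and the 6 h call without sham 6 h library 1 (0.098) or 3 (0.072), without the filter on low values (0.051) and with the trend on gene span removed (0.056).

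At 1 day Ncf4 had 32.1 to 100 RPM in irradiated libraries (median 47.3), against 30.3 to 57.6 RPM in sham libraries (median 43.8). At 1 week it had 47.7 to 131 RPM in irradiated libraries (median 69.1), against 49.3 to 70.4 RPM in sham libraries (median 55.0). At both times the irradiated groups held 2 libraries above every sham library, and at 1 week also 1 below every sham library, with the others inside the sham range. Neither change passed the test, at 0.26 ± 0.21 and 0.32 ± 0.21 (SE, limma adjusted p = 0.63 and 0.45).

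Rac2 encodes the Rac GTPase of blood cells. At 2 h it had 20.9 to 43.0 RPM in irradiated libraries (median 25.2), against 16.3 to 159 RPM in sham libraries (median 41.8). At 6 h it had 46.2 to 62.2 RPM in irradiated libraries (median 56.2), against 26.3 to 88.1 RPM in sham libraries (median 43.0). The sham groups were the wider ones at both times and held the irradiated values within their range. The log2(RPKM + 1) changes were -0.45 ± 0.26 at 2 h (SE, limma adjusted p = 0.36) and 0.15 ± 0.26 at 6 h (limma adjusted p = 0.73).

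At 1 day Rac2 had 55.4 to 98.7 RPM in irradiated libraries (median 75.7), against 28.5 to 87.9 RPM in sham libraries (median 69.0). At 1 week it had 49.4 to 105 RPM in irradiated libraries (median 76.5), against 53.5 to 79.9 RPM in sham libraries (median 71.9). The groups overlapped at both times, and the changes were 0.20 and 0.11 (limma adjusted p = 0.78 and 0.88). The ubiquitous Rac1 stood between 334 and 487 RPM in the irradiated libraries and between 385 and 538 RPM in the sham libraries of all times. Its changes were -0.13, -0.11, -0.14 and -0.07 and none passed (limma adjusted p = 0.40 to 0.73). Rac1 shares 2309 exon bases with Daglb on the opposite strand.

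Counted over the 5 genes, 4 rose at 2 h, where 8.62% of all genes tested passed the test and 4.6% were higher in irradiated libraries. At 6 h 3 of 5 rose, where 20.9% of all genes passed and 12.9% were higher. None passed at 1 day, where 4.29% of all genes passed (2.9% higher), or at 1 week, where 3.54% passed (2.03% higher), and at an unadjusted p under 0.05 there was 1 of 5 at 1 day (Cyba) and 0 of 5 at 1 week. By voom 3, 3, 0 and 0 of the 5 genes rose at the 4 times, Ncf4 at 2 h being the one that missed the threshold (adjusted p = 0.056). The median change of the 5 genes was 0.65 at 2 h, 0.64 at 6 h, 0.20 at 1 day and 0.11 at 1 week on the log2(RPKM + 1) scale, beside the medians of all genes given above. Cybb entered the test through the irradiated libraries, so these counts and medians describe the genes and are not further evidence for a rise of the oxidase.

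**Figure D2:**
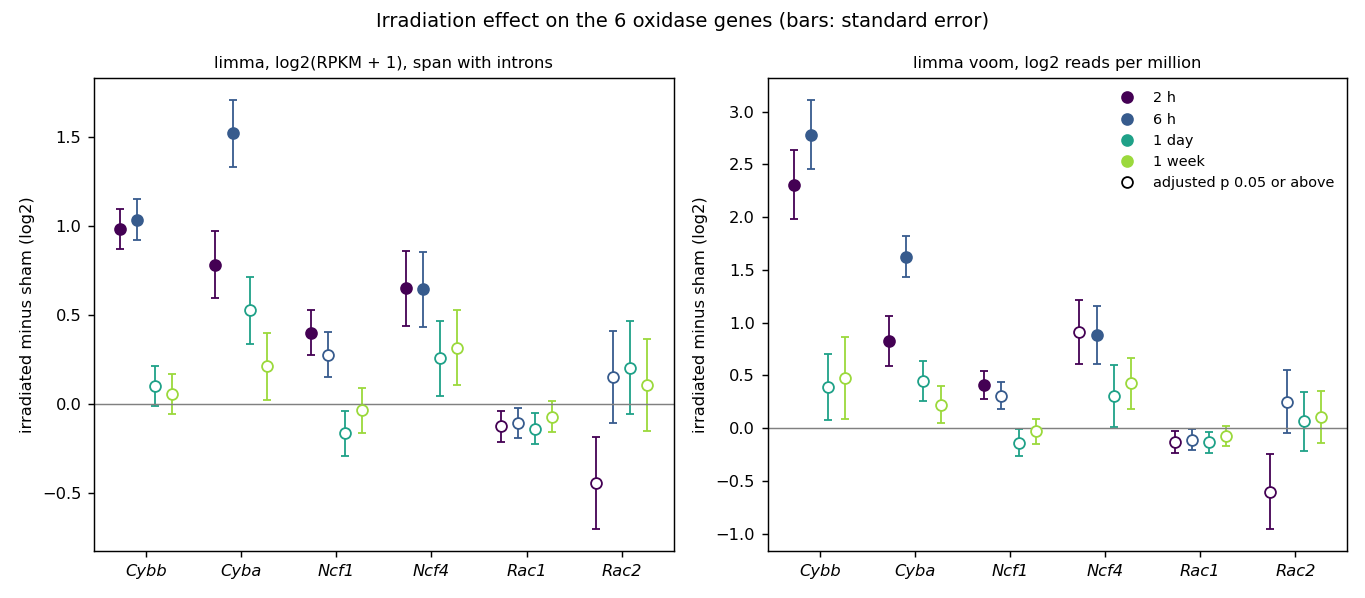
Irradiated minus sham change (log2) of the 6 oxidase genes at 4 times, with the standard error as bars, from limma on log2(RPKM + 1) on the left and from limma voom on the recovered reads on the right; filled points passed an adjusted p of 0.05. Cybb at 2 h and 6 h stands at 0.98 and 1.04 on the left and at 2.31 and 2.78 on the right, and its points at 1 day and 1 week are open in both panels.

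The differences of the effect between neighbouring times were tested in the same fit. From 2 h to 6 h the effect differed in 0 of the 5 genes by limma, against 9.28% of all genes, with 1 of 5 at an unadjusted p under 0.05 (Cyba, 0.74 ± 0.27, adjusted p = 0.070). The difference for Cyba passed when sham 6 h library 5 (0.92, adjusted p = 0.0086) or library 6 (0.88, adjusted p = 0.018) was left out of the limma fit, and with sham 6 h libraries 1 to 4 only (1.15, adjusted p = 0.00014), whereas with sham 6 h libraries 5 and 6 only it was -0.08 (adjusted p = 0.97). From 6 h to 1 day it was lower in 2 of the 5 genes, Cybb as given above and Cyba by -0.99 ± 0.27 (SE, limma adjusted p = 0.024), against 4.38% of all genes in either direction and 2.67% lower. From 1 day to 1 week it differed in 0 of 5 by limma, against 5.43% of all genes, and in 0 of 5 at an unadjusted p under 0.05. The difference for Cyba between 6 h and 1 day was lost without sham 6 h library 1 (-0.92, limma adjusted p = 0.052) or library 2 (-0.80, limma adjusted p = 0.054).

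The split of the sham 6 h group bore on these genes unequally. Cyba had 222 to 320 RPM in the irradiated 6 h libraries, against 40.5 to 79.5 RPM in sham libraries 1 to 4 and 171 and 147 RPM in sham libraries 5 and 6. Cybb had 7.63 to 23.2 RPM in sham libraries 1 to 4 and 13.9 and 11.2 RPM in sham libraries 5 and 6, so the 2 sets did not stand apart for it. Ncf1 had 463 to 765 RPM in sham libraries 1 to 4 and 850 and 873 RPM in sham libraries 5 and 6. Ncf4 had 20.5 to 52.6 RPM in sham libraries 1 to 4 and 66.6 and 58.6 RPM in sham libraries 5 and 6. Rac2 had 46.2 to 62.2 RPM in the irradiated libraries, against 26.3 to 50.6 RPM in sham libraries 1 to 4 and 80.6 and 88.1 RPM in sham libraries 5 and 6, so that the irradiated values lay below the second set and mostly above the first.

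With sham libraries 5 and 6 as the only sham 6 h libraries, the 6 h change was 1.04 ± 0.16 for Cybb (SE, limma adjusted p = 3.3e-05) and 0.70 ± 0.19 for Cyba (limma adjusted p = 0.030). In that fit 1.56% of all genes were higher in irradiated libraries. Ncf4 then changed by 0.25 (limma adjusted p = 0.92), and the changes of Ncf1 and Rac2 turned to -0.09 and -0.51 without passing the test (limma adjusted p = 0.96 and 0.73). The lower effect of Cyba at 1 day was also lost (-0.18 ± 0.23, limma adjusted p = 0.94), while that of Cybb was kept (-0.94 ± 0.20, limma adjusted p = 0.018).

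With sham libraries 1 to 4 only, the 6 h change was 1.03 for Cybb, 1.93 for Cyba, 0.46 for Ncf1 and 0.84 for Ncf4, all of which passed (limma adjusted p = 5.5e-08, 2.2e-12, 0.0055 and 0.0046), as did 18.6% of all genes in that direction. The effect at 1 day was then lower than that at 6 h for Ncf1 as well (-0.62, limma adjusted p = 0.012). Rac2 changed by 0.48 and did not pass (limma adjusted p = 0.18). The first of these fits rests on 2 sham libraries and the second on 4, and both give larger standard errors for Cybb than the fit with all 6.

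**Figure D3:**
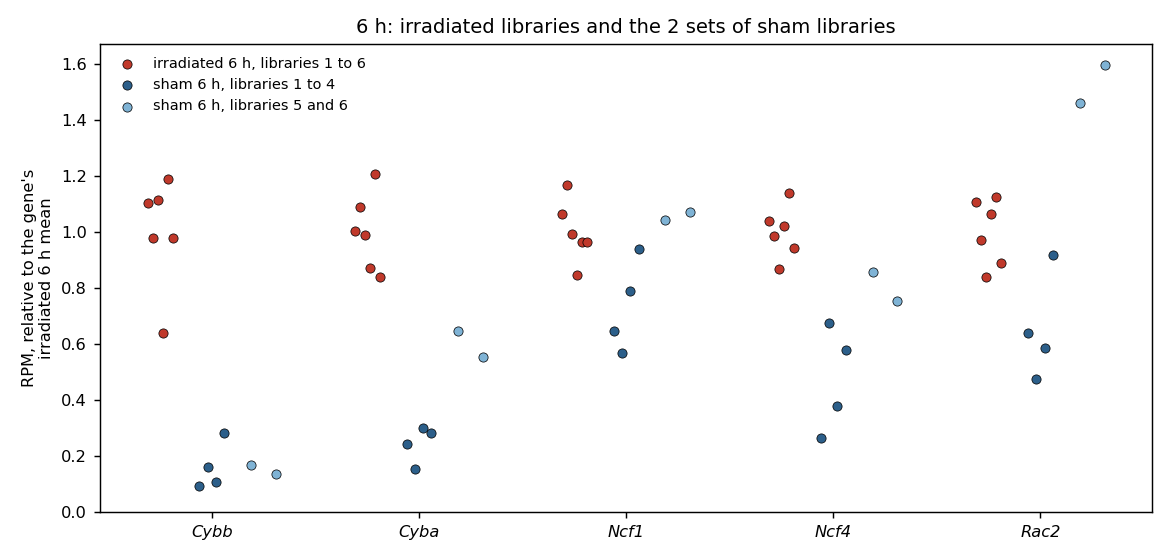
RPM at 6 h of the 5 oxidase genes, each divided by the gene's mean over the 6 irradiated libraries (linear axis), for irradiated libraries (red), sham libraries 1 to 4 (dark blue) and sham libraries 5 and 6 (light blue). Cybb is low in both sets of sham libraries, whereas for Cyba, Ncf1, Ncf4 and Rac2 libraries 5 and 6 lie above libraries 1 to 4.

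Levels also moved among the sham groups. The limma F test over the 4 sham groups passed for 2 of the 5 genes, Cyba (adjusted p = 1.1e-05) and Ncf1 (adjusted p = 0.044), and for 21.1% of all genes. Sham Cyba was higher at 1 day and 1 week than at 2 h, by 1.11 ± 0.19 and 1.24 ± 0.19 on the log2(RPKM + 1) scale (SE, limma adjusted p = 7.2e-05 and 1.4e-05). Sham medians of Cyba were 59.5, 77.4, 143 and 139 RPM at 2 h, 6 h, 1 day and 1 week, so the early irradiation effects were measured against lower sham levels than the late ones. Sham Cybb had medians of 18.7, 12.3, 27.3 and 6.00 RPM in that order, and its F test on log2(RPKM + 1) did not pass (limma adjusted p = 0.093). It did pass on the scales less bound to gene span, by voom (adjusted p = 0.014), on log2(RPM + 1) (limma adjusted p = 0.0067) and with a pseudocount of 0.1 (limma adjusted p = 0.023), with the trend on gene span removed (limma adjusted p = 0.043), and without sham 1 week library 2 (limma adjusted p = 0.019). The call for Ncf1 was lost by voom (adjusted p = 0.066) and when any of 12 single sham libraries was left out, and Rac2 gained one without sham 2 h library 2 (limma adjusted p = 0.013).

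To compare genes with each other, levels were set as RPM per kilobase of exon. In irradiated libraries the medians over 24 libraries were 209 for Ncf1, 167 for Cyba, 94.1 for Rac1, 35.4 for Ncf4, 19.3 for Rac2 and 8.33 for Cybb, and in sham libraries they were 199 for Ncf1, 120 for Cyba, 99.8 for Rac1, 23.5 for Ncf4, 20.2 for Rac2 and 2.70 for Cybb. Cybb was the lowest of the 6 in both treatments, with 1.08 to 20.2 in irradiated and 0.820 to 6.87 in sham libraries. The ranges of Ncf4 and Rac2 overlapped in both treatments, and so did those of Ncf1 and Cyba and of Cyba and Rac1. The range of Cybb lay below that of its partner Cyba in both treatments and overlapped that of Rac2, its neighbour in the order of medians.

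**Figure D4:**
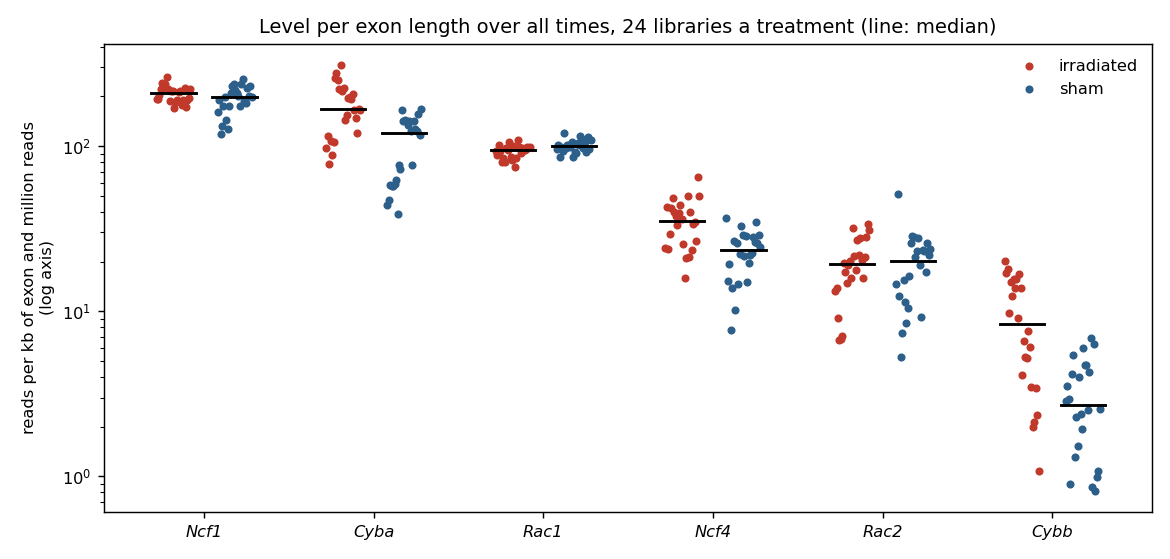
RPM per kilobase of exon (log axis) of the 6 oxidase genes over all times, 24 irradiated libraries (red) left of 24 sham libraries (blue), with the median as a line. Ncf1 and Cyba lie highest and Cybb lowest, with medians of 8.33 in irradiated and 2.70 in sham libraries.

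The 5 genes did not follow one another closely across libraries. Over all 48 libraries, which share groups and times, Pearson's r of log2(RPKM + 1) was 0.28 between Cybb and Cyba, and the highest of the 10 pairs was 0.51, between Cyba and Ncf1. After each group's mean was taken out, r between Cybb and Cyba was -0.08, and the highest value was 0.42, between Cyba and Rac2.

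Likeness to each of the 5 genes was ranked without genes whose symbols mark predicted genes, clones, pseudogenes, small RNAs or mitochondrial genes. This left 1842 tested genes with a mean RPKM of at least 5. The 3 closest to Cybb over the 48 libraries were Trp53inp1 (r = 0.86), Plk2 (0.86) and Ei24 (0.83), all of which are known p53 target genes. Trp53inp1 had 393 to 510 RPM in irradiated libraries at 2 h (median 479), against 18.4 to 40.1 RPM in sham libraries (median 28.7), and at 1 week 43.7 to 103 RPM in irradiated libraries (median 56.0), against 19.0 to 39.2 RPM in sham libraries (median 26.1). It remained above sham at 1 week, where Cybb overlapped its sham group. Within groups the likeness was weak (r = 0.17, 0.21 and -0.02), so it lies in the group means.

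The 3 genes closest to Cyba were Grina (r = 0.91), Ctsz, a lysosomal cathepsin (0.91), and Ly6e (0.87), and their likeness was kept within groups (r = 0.79, 0.64 and 0.63). Grina had 185 to 235 RPM in irradiated libraries at 6 h (median 215), against 51.0 to 178 RPM in sham libraries (median 78.3), the same wide sham spread as for Cyba. The closest genes of Rac2 were Nagpa (0.73), Trem2, a microglial lipid receptor (0.71), and Ckb, a creatine kinase (0.71). For Ncf1 (Syngr2, Rps3a1 and Rrad) and Ncf4 (Ak1, Gramd1a and Dctn2) the highest r was 0.624, between Ncf4 and Ak1. These values are descriptions over libraries that share groups, depth and preparation.

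Genes that build, prime or switch on the oxidase did not move as a block. Of 25 listed genes found in the data 22 were tested. At 2 h 2 rose and 2 fell, and at 6 h 5 rose and 3 fell. At 1 day 2 rose and 1 fell, and at 1 week 2 rose and 2 fell. Of all genes tested, 8.62%, 20.9%, 4.29% and 3.54% passed in either direction at the 4 times. The median change of the 22 genes was -0.11, 0.07, 0.07 and 0.21 log2 units, near the medians of all genes at the first 3 times. Against sham 6 h libraries 5 and 6 the count of the 22 at 6 h was 1 higher and 1 lower. Of all 10132 genes, 158 were then higher and 54 lower.

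Pla2g4a encodes the cytosolic phospholipase that releases arachidonic acid, an activator of the assembled enzyme. It rose at all 4 times, by 0.78, 0.79, 0.56 and 0.61 log2 units (limma adjusted p = 1.6e-08, 1.0e-08, 2.9e-05 and 3.9e-05), and at 6 h also against sham libraries 5 and 6 (0.68, limma adjusted p = 0.00091). Pik3cg, a phosphoinositide 3-kinase that acts upstream of Rac activation, fell at 2 h, 6 h and 1 week, by -0.50, -0.45 and -0.39 (limma adjusted p = 0.00042, 0.00089 and 0.021), and its change at 1 day was 0.11 (limma adjusted p = 0.66). Arhgdib, which encodes an inhibitor that holds Rac in the cytosol, rose at 6 h by 0.79 (limma adjusted p = 2.2e-05), and so did the kinase gene Pik3cd, by 0.73 (limma adjusted p = 0.00018). Neither passed against sham libraries 5 and 6 (0.54 and 0.15, limma adjusted p = 0.16 and 0.89).

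Outside the rule for naming, and chosen after their values were seen, 2 genes act on the core itself. Hvcn1, the proton channel that balances the charge moved by the oxidase, rose at 2 h by 0.82 (limma adjusted p = 0.0015) and at 6 h by 0.62 (limma adjusted p = 0.011), but not against sham libraries 5 and 6 (0.31, limma adjusted p = 0.72). Nrros, known in mouse phagocytes to promote the degradation of gp91phox, changed by -0.40 at 2 h without passing (limma adjusted p = 0.13) and rose at 6 h, 1 day and 1 week by 0.72, 0.58 and 0.79 (limma adjusted p = 0.0011, 0.027 and 0.0029). At 6 h its change against sham libraries 5 and 6 was 0.66 and did not pass (limma adjusted p = 0.15).

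Of 8 transcription factors known to act on oxidase genes 7 were tested, and 3 rose at 2 h and 2 at 6 h. Of all genes tested, 4.6% were higher in irradiated libraries at 2 h and 12.9% at 6 h. The median change of the 7 factors was 0.44, 0.36, 0.12 and 0.19 log2 units at the 4 times. Cebpb, a myeloid factor induced by stress, rose by 1.89 at 2 h (limma adjusted p = 0.00019) and by 1.16 at 6 h (limma adjusted p = 0.016). The NF-kB genes Relb and Nfkb1 rose at 2 h by 1.90 and 0.44 (limma adjusted p = 0.00069 and 0.019), and Rela at 6 h by 0.78 (limma adjusted p = 0.0027). Against sham libraries 5 and 6 the 6 h change was 0.85 for Cebpb (limma adjusted p = 0.68) and 0.16 for Rela (limma adjusted p = 0.95), and neither passed. Spi1, which encodes PU.1, changed by 0.20 and 0.39 at 2 h and 6 h without passing (limma adjusted p = 0.68 and 0.19), and it was named after its value was seen.

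Genes that remove or sense reactive oxygen rose in part at 2 h and 6 h. Of 18 listed genes 16 were tested, and 3 rose at 2 h, 7 at 6 h, 1 at 1 day and 1 at 1 week. Of all genes tested, 4.6%, 12.9%, 2.9% and 2.03% were higher in irradiated libraries at these times. Against sham libraries 5 and 6, 2 of the 16 genes rose at 6 h, as did 1.56% of all genes. The median change of the 16 genes was 0.19, 0.29, -0.02 and -0.03 log2 units. Over all genes it was -0.01, 0.08, 0 and 0.05. Nfe2l2, which encodes the transcription factor NRF2, rose by 0.59 at 2 h and 0.52 at 6 h (limma adjusted p = 0.00028 and 0.00077). Against sham libraries 5 and 6 it rose by 0.89 at 6 h (limma adjusted p = 4.9e-05). The thioredoxin reductase gene Txnrd1 rose by 0.76 at 2 h and 0.44 at 6 h (limma adjusted p = 2.9e-05 and 0.011), and its 6 h call was lost against sham libraries 5 and 6 (0.52, limma adjusted p = 0.18). Hmox1, the inducible haem oxygenase, rose at 6 h by 1.55 (limma adjusted p = 0.00057), also against sham libraries 5 and 6 (1.74, limma adjusted p = 0.027), and its change at 2 h was 0.21 (limma adjusted p = 0.81). Gpx1, a glutathione peroxidase, rose at 6 h by 0.96 (limma adjusted p = 0.00054) but not against libraries 5 and 6 (0.50, limma adjusted p = 0.61).

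The other NADPH oxidases were close to absent. None of the 9 listed genes of other oxidases passed the filter, and their summed level was 0 to 5.05 RPM in irradiated and 0 to 12.3 RPM in sham libraries. Nox1, Nox3, Nox4 and Duox2 had 4, 1, 0 and 2 reads over the 48 libraries.

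Markers of cell types moved at 2 h and 6 h and also at 1 day, where none of the 5 oxidase genes passed. The part of the markers in the oxidase results was not tested. At 2 h the 10 microglia markers summed to 31204 to 43095 RPM in irradiated and 34185 to 45489 RPM in sham libraries. At 6 h the sum was 31908 to 35223 RPM in irradiated and 41050 to 45834 RPM in sham libraries. At 1 day it was 22931 to 34244 RPM in irradiated and 33903 to 44302 RPM in sham libraries. At 1 week it was 40936 to 48727 RPM in irradiated and 37615 to 41556 RPM in sham libraries. At 6 h 5 of these 10 genes fell, P2ry12 by -1.13 (limma adjusted p = 8.0e-09), and 2 of 10 did so at 2 h. At 1 day 5 of 10 fell, and at 1 week 1 fell and 2 rose. Of all 10132 genes tested, 407, 811, 141 and 153 fell at 2 h, 6 h, 1 day and 1 week, and 206 rose at 1 week. Against sham libraries 5 and 6, 2 of the 10 markers fell at 6 h, and 54 of all genes did. The 6 markers of perivascular macrophages summed to 26.5 to 70.8 RPM in irradiated and 92.9 to 162 RPM in sham libraries at 6 h. Over all 48 libraries Mrc1 was by far the highest of the 6, at a mean of 82.1 RPM against 6.32 RPM for Pf4, the next. Of 3 tested, Mrc1 fell at 6 h by -0.64 (limma adjusted p = 1.3e-05), but did not pass against sham libraries 5 and 6 (-0.52, limma adjusted p = 0.054). Pf4 and Cbr2 changed at 6 h by 1.49 and 0.16 without passing (limma adjusted p = 0.19 and 0.76). The 15 markers of monocytes and neutrophils other than Csf3r, which these cells carried at a mean of 449 RPM, summed to 5.88 to 17.4 RPM in irradiated and 1.95 to 34.4 RPM in sham libraries at 2 h, and to 9.95 to 29.3 RPM in irradiated and 11.1 to 17.9 RPM in sham libraries at 6 h. These ranges overlapped at both times. Csf3r itself was higher in irradiated libraries at 6 h by 0.72 (limma adjusted p = 0.00044), and by 0.16 against sham libraries 5 and 6. At 1 day the sum of the 15 markers was 25.1 to 91.9 RPM in irradiated and 14.4 to 51.3 RPM in sham libraries, with Plac8 higher by 0.79 (limma adjusted p = 0.016). Markers of lymphocytes, of neurons and macroglia and of endothelium overlapped between irradiated and sham libraries at 2 h and at 6 h, although Cd79b, a B cell gene, fell at 2 h by -0.77 (limma adjusted p = 0.032).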

How the data were processed

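RNA-seq of 48 libraries in 8 groups of 6 animals was analysed. Per the submitters' processing notes, the tools included STAR 2.6.1d, featureCounts 1.5.1, bcl2fastq 2.20.0 and FastQC 0.11.8, and the builds named are mm10 and GRCm38. The annotation and the assignment of reads are not given in the sources used here. The deposited values are RPKM made by the authors for 48526 genes, per kilobase of gene span with introns and per 1000000 reads of a library total, which for 2.05% of values was the library's own. Whole reads were recovered for 100% of 719081 values above 0 (tolerance 0.001 reads), and 48 of 48 libraries matched a total; 95 genes of at most 7 reads had more than 1 solution. The recovery was checked on simulated data. The RPKM were rebuilt on the total of the library itself, which moved values by a factor whose 5th to 95th percentile was 0.436 to 3.11 (deposited over recomputed).

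A mean for each of the 8 groups was fitted in limma 3.58.1 (R 4.3.3, eBayes with trend and robust, 40 residual degrees of freedom) on log2(RPKM + 1), after a filter of RPKM 1 in at least 6 libraries (10132 genes). Tests are two-sided. Voom used the recovered reads and library totals. Exon lengths came from the GENCODE annotation of GRCm38. Genes named are the 5 oxidase genes and Rac1, up to 4 genes of each other list with the smallest adjusted p, and the 3 genes most like each of the 5. Members and lists were chosen with earlier results of these data known. Alternatives were another pseudocount, no filter, median-ratio size factors, voom, values as deposited, a replicate block, each time alone, removal of a trend with gene span, and leaving out libraries.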

Additional observations from a re-analysis of the deposited data

Results flagged for a closer look

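In 3 of 48 sets of 6 libraries looked at (6 oxidase genes in 8 groups), 1 library lay far from the other 5; chance gives this in about 1 of 20 sets. Cybb in sham 1 week library 2 had 37.0 RPM, against 4.76 to 14.9 RPM in the other sham libraries of that time. Cyba in sham 1 day library 6 had 79.8 RPM, against 128 to 149 RPM in the others, and this library had the fewest reads of all (175382). Rac2 in sham 2 h library 2 had 159 RPM, against 16.3 to 47.9 RPM in the others.

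The irradiation effect at 1 day was lower than that at 6 h for Cybb, by -0.93 log2 units, and for Cyba, by -0.99, in the limma test of the difference itself (adjusted p = 0.00048 and 0.024). The value for Cybb held against either set of sham 6 h libraries, and that for Cyba was lost against sham libraries 5 and 6 (-0.18).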

How the results depend on the processing

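Cybb and Cyba kept their calls at 2 h and 6 h under every alternative but the values as deposited. Of the 5 genes, 4 were called at 2 h, but 2 without the filter, 2 with the 12 libraries of 2 h fitted alone, 2 with the replicate block and 0 as deposited, and 2 to 4 with 1 library left out. At 6 h the count of 3 was 2 without the filter, with the span trend removed or with sham libraries 5 and 6 only, 4 with sham libraries 1 to 4 only, 0 as deposited and 2 to 4 with 1 library left out. At 1 day it was 1 instead of 0 with sham 6 h libraries 1 to 4 only or 5 and 6 only, an alternative chosen after seeing the data, as was log2(RPM + 1). The effect from 2 h to 6 h differed in 1 gene instead of 0 with sham 6 h libraries 1 to 4 only, and in 0 to 1 with 1 library left out. From 6 h to 1 day the count of 2 was 1 without the filter, 1 with sham 6 h libraries 5 and 6 only, 3 with libraries 1 to 4 only, 0 as deposited, and 1 to 2 with 1 library left out. Among the sham groups the count of 2 was 1 with size factors, without the filter, as deposited or without the 3 smallest libraries, 3 with a pseudocount of 0.1 or on log2(RPM + 1), where Cybb joined, and 1 to 3 with 1 library left out. By voom and with the span trend removed the 2 genes were Cybb and Cyba, without Ncf1. The block could not be fitted to this test, since the numbers lie within a time.

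Direction turned only for changes that had not passed. Ncf1 was -0.085 at 6 h with sham libraries 5 and 6 and 0.21 at 1 day as deposited, and at 1 week its range with 1 library left out was -0.072 to 0.0037, with 0.0037 without irradiated library 3 and 0.00042 without sham library 5. Rac1 at 1 day was 0.19 as deposited. Rac2 at 6 h was -0.00041 with the span trend removed, -0.51 with sham libraries 5 and 6 and -0.037 as deposited. The cause was not tested.

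The library numbers did not pair the samples: deviations of same-numbered libraries correlated at 0.016 to 0.14 at 2 h, -0.012 to 0.036 at 6 h, -0.11 to 0.079 at 1 day and -0.041 to 0.062 at 1 week, with 2, 1, 1 and 1 of 6 libraries closest to their own number. With the block, 760 instead of 873 genes passed at 2 h and 1993 instead of 2120 at 6 h. Over all genes, 212 instead of 2120 passed at 6 h with sham libraries 5 and 6 (158 higher, 54 lower, against 1309 and 811), 513 instead of 873 at 2 h and 259 instead of 435 at 1 day with each time alone, and 52, 64, 39 and 11 as deposited. At 1 week 709 instead of 359 passed by voom and 235 without the filter. With the span trend removed, 918 genes were higher and 912 lower at 6 h. Cybb rests on as few as 7 reads in a library, and the 3 smallest libraries limit the precision of every low gene.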
